A study of Mus musculus with 12 samples.

Results

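Oligodendrocyte progenitor cells that received hemin together with interleukin-10 (IL-10) were compared with cells that received only the vehicle, to describe which genes differ from vehicle-treated cells when IL-10 is present. The comparison uses 6 of the series' 12 RNA-seq libraries, chosen by their titles: 3 of hemin with IL-10 and 3 of vehicle. All cells were labelled as wild-type primary progenitors from mouse brain, and treatment lasted 12 h. Cells of the first group received hemin at 50 µM and IL-10 at 10 ng/mL, and vehicle cells received DMSO. Another group, with hemin alone at 50 µM (3 libraries), is set beside them where it bears on the result, and no library was labelled as IL-10 without hemin. Nothing in the labels ties a replicate to its own culture or mouse, so the p-values reflect the spread between these libraries alone, and that spread may be technical.

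Oligodendrocyte progenitors are the glial precursors that divide and mature into the myelinating oligodendrocytes of the brain. Hemin is the oxidised form of heme, the iron-containing group that is released from haemoglobin after bleeding, and cells break it down with heme oxygenase into iron, carbon monoxide and biliverdin. Free heme displaces the repressor BACH1 from antioxidant genes and can damage proteins, which brings in heat shock factors and the kinases of the integrated stress response. IL-10 is an anti-inflammatory cytokine whose receptor acts through JAK1, TYK2 and the transcription factor STAT3, with SOCS3 as a classical early target in immune cells.

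Expected counts, the fractional read numbers assigned to genes, summed to 9709817, 9547591 and 9671847 in the hemin with IL-10 libraries and to 9965721, 10075370 and 9680790 in the vehicle libraries. Values per library are given below in the order of replicates 1, 2 and 3, as CPM, read counts scaled to a common library size and corrected for composition. Changes are log2 fold changes with a standard error (SE). A gene was called when its Benjamini-Hochberg adjusted p from edgeR's quasi-likelihood test, over 13967 genes, was under 0.05. IL-10 replicate 3 stood apart from the other 2 libraries of its group, with Spearman correlations across genes of 0.932 and 0.960 against 0.984 between replicates 1 and 2. Ribosomal protein genes took 3.66%, 4.15% and 6.56% of counts with hemin and IL-10, and 2.67%, 3.04% and 3.14% with vehicle. In the fifth of genes with the longest transcripts the median difference from the vehicle mean was -0.11, -0.19 and -0.15 on the log2 scale in the hemin with IL-10 libraries, and between -0.01 and 0.01 in the vehicle libraries. The part of these library differences in the results was not tested beyond the alternatives given below.

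Hemin with IL-10 left a large part of the transcriptome different from vehicle. In all, 1696 genes rose and 1231 fell, 12.1% and 8.81% of those tested and together 21.0%. The shares of 12.1% and 8.81% are the background for the list counts below. Calls varied with transcript length: in the fifth of genes with the shortest transcripts 12.7% rose and 2.43% fell. In the fifth with the longest, 8.84% rose and 13.6% fell. The rises reached further: 1362 genes rose and 879 fell by at least 2-fold, while 291 rose and 4 fell by at least 16-fold, by fitted changes, which are not bounds for genes with few or no counts in a group. The filter on low counts kept genes with enough counts in any group, so genes nearly silent in vehicle entered through the others. Of 1259 genes with a vehicle mean under 1 CPM, 44.6% rose and 0.0% fell. Tested genes without counts numbered 88 in vehicle and 5 with hemin and IL-10. How much of the uneven split comes from this was not tested. Over all genes tested the median log2 change was 0.00, and scaling by library totals in place of composition moved it to -0.13 and the split of calls to 1317 higher and 1665 lower. Counts of calls depended on single libraries. They came to 1766, 1272 and 2699 without IL-10 replicate 1, 2 and 3, and to 1202, 1697 and 1468 without vehicle replicate 1, 2 and 3. A set of 1004 genes, 643 higher and 361 lower, was called in the same direction in each of these 6 fits. The call of a gene given below with its own change held in all 6 unless a library is named beside it; list members named without a value were not followed singly.

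**Figure D1:**
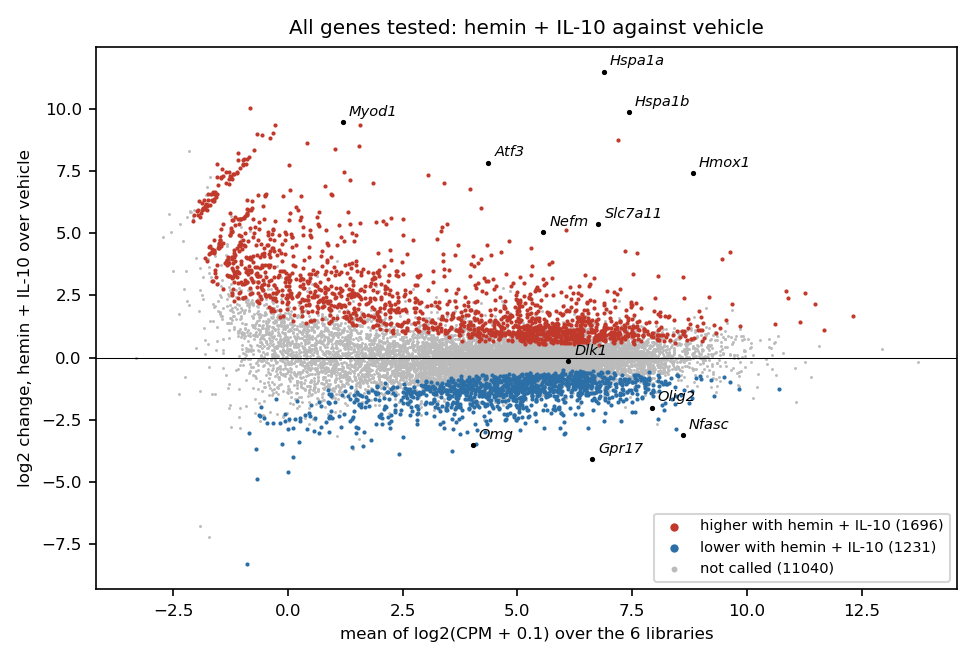
Each point is 1 of the 13967 genes tested. The x axis is the mean of log2(CPM + 0.1) over the 6 libraries and the y axis is the log2 change of hemin with IL-10 over vehicle. Red points (1696) were called higher, blue points (1231) lower, and grey points were not called. More rises than falls lie far from 0, with 291 rises and 4 falls of at least 16-fold. Genes nearly silent in vehicle entered the test through other groups and had little room to fall. Labelled points include Hspa1a at 11.49 and Gpr17 at -4.07, and the lowest called point, Slc30a10, had no counts with hemin and IL-10.

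Inducible chaperones led the rises. Hspa1a, which encodes the stress-inducible HSP70 chaperone that refolds damaged proteins, had 4003, 6789.9 and 8330.5 CPM with hemin and IL-10, against 2.41, 2.47 and 1.71 CPM with vehicle. Its near-identical neighbour Hspa1b had 4147, 5457 and 6211 CPM with hemin and IL-10 and 5.85, 6.40 and 4.57 CPM with vehicle. For both genes each library with hemin and IL-10 lay above each vehicle library, as was the case for 24.9% of all genes (24.3% lay below and 49.2% were separate in either direction), and the log2 changes were 11.49 (SE 0.64, edgeR adjusted p = 4.51e-06) and 9.87 (SE 0.58, edgeR adjusted p = 4.51e-06). Hspa1l, the other gene of this cluster, changed by 8.74 (SE 0.58, edgeR adjusted p = 9.93e-06). RefSeq places its start 547 bases from that of Hspa1a on the opposite strand, and the counting method could have split reads among these 3 genes, so their separate values are uncertain. The 250 bases before the starts of Hspa1a and Hspa1b are 98.8% identical, as the sequences show.
Hspa1a (chr17:34972157-34972406, minus strand): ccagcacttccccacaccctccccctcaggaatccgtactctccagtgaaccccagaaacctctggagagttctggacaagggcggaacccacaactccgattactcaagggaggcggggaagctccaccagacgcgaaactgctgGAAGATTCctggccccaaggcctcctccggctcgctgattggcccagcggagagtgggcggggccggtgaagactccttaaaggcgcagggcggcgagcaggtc
Hspa1b (chr17:34959239-34959488, minus strand): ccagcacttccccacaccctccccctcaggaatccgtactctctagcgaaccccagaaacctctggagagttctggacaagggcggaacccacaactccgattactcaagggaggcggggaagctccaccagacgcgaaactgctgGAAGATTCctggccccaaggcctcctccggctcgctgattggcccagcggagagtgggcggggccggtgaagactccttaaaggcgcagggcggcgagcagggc
Both sequences are from RefSeq on GRCm38.p6 and are written 5′ to 3′. Capitals mark GAANNTTC, the core of the element that heat shock factors bind, searched on both strands. These promoters were chosen for display after their matches were seen, from a search of 9 motifs. Windows of the same length held GAANNTTC for 6.06% of the 11076 tested genes with a promoter entry, for 6.55% of those that rose, for 4.03% of those that fell, and for 6 of the 18 heat shock genes with one.

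The wider heat shock list moved with them. Of 23 heat shock proteins and co-chaperones tested, 19 rose and none fell, with a median log2 change of 1.65 beside 0.00 for all genes. The number that rose was 14, 12 and 19 without IL-10 replicate 1, 2 and 3, and 12, 13 and 14 without vehicle replicate 1, 2 and 3. Dnajb1, the HSP40 partner that hands clients to HSP70, had 810.4, 600.0 and 401 CPM with hemin and IL-10 and 55.8, 55.5 and 63.8 CPM with vehicle, a change of 3.37 (SE 0.39, edgeR adjusted p = 0.000446). Hspe1, the mitochondrial co-chaperonin, had 511, 589 and 552 CPM with hemin and IL-10 and 151, 202 and 175 CPM with vehicle, a smaller change of 1.65 (SE 0.22, edgeR adjusted p = 0.000952). Neither gene overlapped between groups. Bag3, the small heat shock genes Hspb1, Hspb8 and Cryab, and the HSP90 genes Hsp90aa1 and Hsp90ab1 were also among those that rose.

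Many proteasome genes and some of autophagy and the lysosome rose. Of 21 proteasome genes tested, 14 rose and none fell, with a median of 0.98. This count rested on few libraries: 3, 5 and 16 without IL-10 replicate 1, 2 and 3, and 3, 5 and 6 without vehicle replicate 1, 2 and 3. Psmc2, an ATPase of the proteasome's regulatory cap, had 426, 349 and 241 CPM with hemin and IL-10, against 108, 127 and 132 CPM with vehicle, a change of 1.47 (SE 0.26, edgeR adjusted p = 0.00325). Psmd4, a ubiquitin receptor of the same cap, changed by 1.26 (SE 0.26, edgeR adjusted p = 0.00716). In the autophagy and lysosome list 6 of 25 rose (24.0%, beside 12.1% of all genes), none fell and 19 were not called, with a median of 0.49. The number that rose was 5, 4 and 8 without IL-10 replicate 1, 2 and 3, and 5, 4 and 4 without vehicle replicate 1, 2 and 3. Sqstm1, the p62 receptor that delivers ubiquitinated cargo to autophagosomes and is itself an NRF2 target, had 6665, 4319 and 932 CPM with hemin and IL-10 and 197, 248 and 183 CPM with vehicle. Its log2 change was 4.24 (SE 0.80, edgeR adjusted p = 0.00483), with IL-10 replicate 3 well below the other 2 and still above each vehicle library. Gla, a lysosomal galactosidase, changed by 2.27 (SE 0.38, edgeR adjusted p = 0.00264), and the autophagy gene Gabarapl1 by 1.27 (SE 0.27, edgeR adjusted p = 0.00878).

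Some genes of heme breakdown and iron handling were far above vehicle, while most of the list was not called. Of 25 members 6 rose, 1 fell and 18 were not called, and the median was 0.36. Hmox1, the inducible heme oxygenase, had 10945, 7076 and 2164 CPM with hemin and IL-10, against 37.6, 55 and 24.5 CPM with vehicle, a log2 change of 7.43 (SE 0.84, edgeR adjusted p = 0.000393). IL-10 replicate 3 had the lowest Hmox1 level of its group and was still above all vehicle libraries. Slc40a1, ferroportin, the only known cellular iron exporter, had 24.5, 14.2 and 9.19 CPM with hemin and IL-10 and 0.186, 0.183 and 0.0952 CPM with vehicle, a change of 6.57 (SE 0.72, edgeR adjusted p = 0.00032). The ferritin light chain gene Ftl1, part of the iron storage shell, had 6664, 4656 and 2438 CPM with hemin and IL-10 and 855, 968 and 779.7 CPM with vehicle, a change of 2.40 (SE 0.41, edgeR adjusted p = 0.0031). The heavy chain gene Fth1 changed by 2.17 (SE 0.49, edgeR adjusted p = 0.0109), a call that was lost without vehicle replicate 3. The heme transporter family gene Flvcr2 and the biliverdin reductase Blvrb were the other 2 that rose. Alas1, the first enzyme of heme synthesis, was the 1 that fell, a call lost without any 1 of the 6 libraries. The number that rose was 4, 5 and 8 without IL-10 replicate 1, 2 and 3, and 5, 4 and 3 without vehicle replicate 1, 2 and 3.

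Antioxidant genes of the NRF2 and BACH1 pair, an activator and a repressor that compete for the same elements, gave 10 rises and no falls among 26 tested, with a median of 1.28. That number was 5, 5 and 17 without IL-10 replicate 1, 2 and 3, and 4, 5 and 4 without vehicle replicate 1, 2 and 3. Gclc, the catalytic subunit that limits glutathione synthesis, had 429, 381 and 322 CPM with hemin and IL-10 and 70.1, 95.3 and 90.8 CPM with vehicle, with little spread in either group and a change of 2.14 (SE 0.28, edgeR adjusted p = 0.000818). Slc7a11, the cystine importer that supplies glutathione synthesis, had 1524, 898 and 156 CPM with hemin and IL-10, against 14.9, 31.4 and 15.9 CPM with vehicle. Its groups did not overlap and its change was 5.37 (SE 1.17, edgeR adjusted p = 0.00908), with a wide spread among the libraries with hemin and IL-10. Srxn1, sulfiredoxin, which restores oxidised peroxiredoxins, changed by 4.19 (SE 0.79, edgeR adjusted p = 0.00484), and Osgin1, an oxidative stress growth inhibitor, by 7.01 (SE 1.23, edgeR adjusted p = 0.00348). The promoter of Srxn1 is shown because it holds the core TGANTCA more than once.
Srxn1 (chr2:152105274-152105523, plus strand): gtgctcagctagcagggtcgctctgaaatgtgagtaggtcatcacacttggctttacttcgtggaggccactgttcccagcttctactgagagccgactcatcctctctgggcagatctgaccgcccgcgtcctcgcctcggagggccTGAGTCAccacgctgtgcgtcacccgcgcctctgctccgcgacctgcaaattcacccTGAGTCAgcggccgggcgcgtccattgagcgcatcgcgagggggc
Capitals mark TGANTCA, the AP-1 site, searched on both strands; it can overlap the antioxidant response element core TGACNNNGC. It stood in 5.57% of all such windows, in 9.09% of those of genes that rose, in 4.24% of those of genes that fell, and in 3 of 23 windows of the antioxidant list. TGACNNNGC stood in 13.9% of all windows, in 16.1% of those of genes that rose, in 12.6% of those of genes that fell, in 7 of those 23 and in 7 of the 20 windows of the immediate early list described below.

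**Figure D2:**
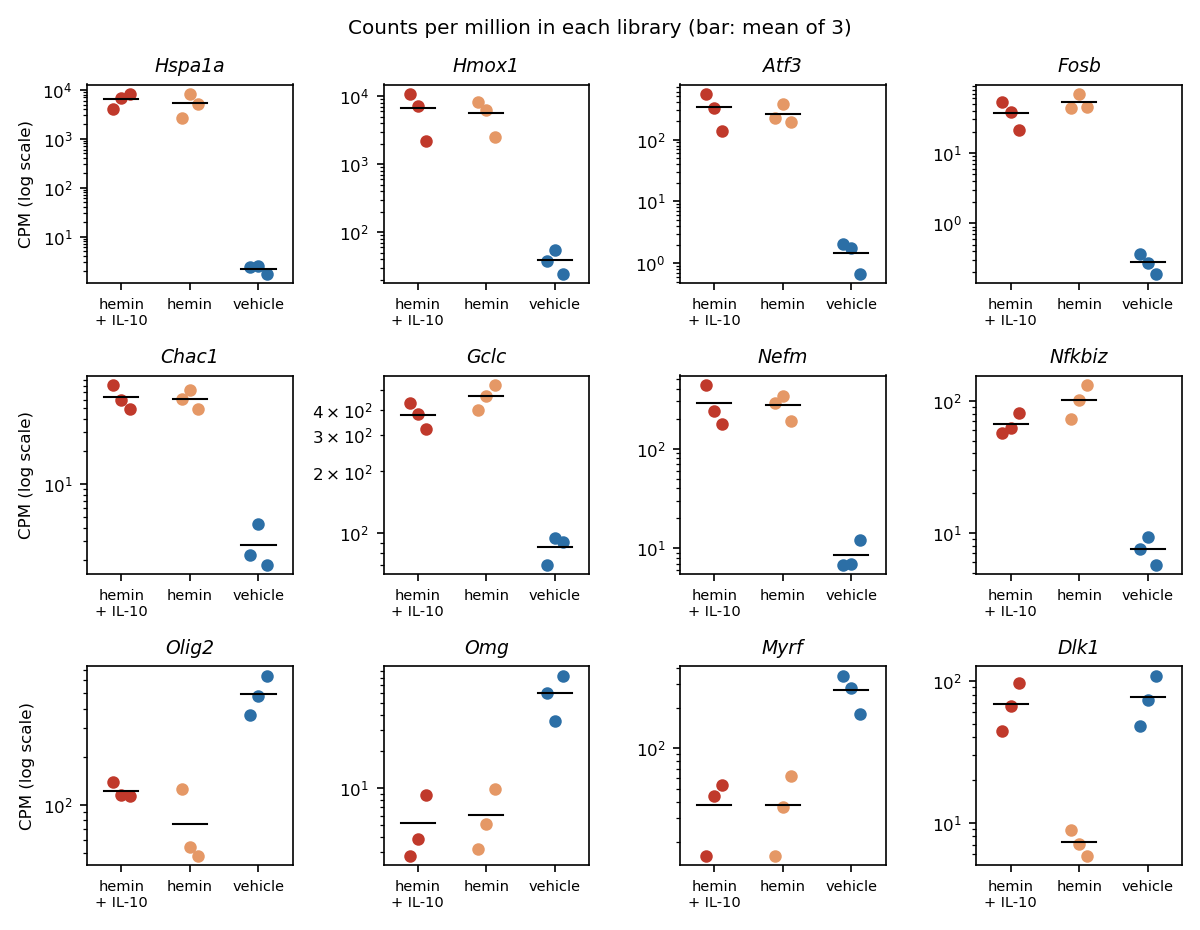
CPM of 12 genes in each library, on logarithmic y axes. Points are replicates 1, 2 and 3 of hemin with IL-10, hemin and vehicle, and bars are means of 3. For 11 genes the hemin with IL-10 libraries lie clear of the vehicle libraries, and for Dlk1 they lie among them, with 44.5, 67 and 96.2 CPM against 47.8, 72.9 and 109 CPM.

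The integrated stress response, in which kinases that sense stress phosphorylate eIF2α and so raise translation of the transcription factor ATF4, was the list with the most rises. Of 31 members 25 rose and none fell, with a median of 1.95. Members that rose numbered 17, 19 and 26 without IL-10 replicate 1, 2 and 3, and 17, 19 and 18 without vehicle replicate 1, 2 and 3. Chac1, an ATF4 target that degrades glutathione, had 82.6, 59.7 and 49.3 CPM with hemin and IL-10, against 2.23, 4.29 and 1.81 CPM with vehicle, a change of 4.51 (SE 0.38, edgeR adjusted p = 5.77e-05). Ddit3, the CHOP transcription factor, had 315, 236 and 93.9 CPM with hemin and IL-10 and 14.8, 16.4 and 14.2 CPM with vehicle, a change of 3.83 (SE 0.47, edgeR adjusted p = 0.000648). Ppp1r15a, which directs the phosphatase that reverses eIF2α phosphorylation, changed by 5.13 (SE 0.80, edgeR adjusted p = 0.00206), and the cysteinyl-tRNA synthetase gene Cars by 1.95 (SE 0.25, edgeR adjusted p = 0.000818). Groups did not overlap for any of these 4. The rises took in amino acid importers (Slc7a5, Slc3a2, Slc7a1, Slc7a3, Slc38a2), serine, asparagine and one-carbon enzymes (Psph, Asns, Shmt2, Mthfd2) and further tRNA synthetases (Sars, Nars, Gars, Aars).
Chac1 (chr2:119350992-119351241, plus strand): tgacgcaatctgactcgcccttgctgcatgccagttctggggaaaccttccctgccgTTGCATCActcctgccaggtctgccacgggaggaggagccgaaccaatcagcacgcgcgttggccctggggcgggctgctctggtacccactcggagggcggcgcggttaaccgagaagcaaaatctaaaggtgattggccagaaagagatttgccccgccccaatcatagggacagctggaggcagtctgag
In the Chac1 promoter, shown for its match, capitals mark TGATGNAA read on the opposite strand, the core of the composite element bound by C/EBP and ATF factors. This core stood in 2.46% of all tested promoters, in 4.62% of those of genes that rose, in 2.44% of those of genes that fell, and in 7 of the 26 windows of the list.

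The unfolded protein response of the endoplasmic reticulum, which shares the kinase PERK with the integrated stress response, was measured with its own list. Of 22 members 5 rose and none fell, and the median was 0.17. The number was 3, 3 and 7 without IL-10 replicate 1, 2 and 3, and 3, 3 and 3 without vehicle replicate 1, 2 and 3. Herpud1, a factor of endoplasmic reticulum protein disposal, had 127, 136 and 74 CPM with hemin and IL-10, against 12.6, 18.1 and 19 CPM with vehicle, a change of 2.76 (SE 0.31, edgeR adjusted p = 0.000356). Xbp1, a transcription factor of this response, changed by 1.40 (SE 0.29, edgeR adjusted p = 0.00706), and Eif2ak3, which encodes PERK itself, by 1.17 (SE 0.24, edgeR adjusted p = 0.00762). Atf6, the membrane-bound sensor, changed by 1.56 (SE 0.41, edgeR adjusted p = 0.0207), but this call was lost without any 1 of the libraries other than IL-10 replicate 3.

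Immediate early genes, which cells switch on within minutes of a stimulus, were high at 12 h. Of 27 members 21 rose and none fell, with a median of 3.02, the largest of the 26 pathway lists. That number was stable when libraries were left out, between 18 and 21. Fosb, a FOS family partner in AP-1, had 52.3, 38.7 and 21.3 CPM with hemin and IL-10, against 0.371, 0.274 and 0.190 CPM with vehicle, a change of 7.0 (SE 0.46, edgeR adjusted p = 9.93e-06). Atf3, a stress-induced factor of the same class, had 558, 328 and 139 CPM with hemin and IL-10 and 2.04, 1.74 and 0.667 CPM with vehicle, a change of 7.83 (SE 0.67, edgeR adjusted p = 5.86e-05). Junb changed by 4.12 (SE 0.28, edgeR adjusted p = 1.16e-05) and Maff, a small MAF partner of NRF2, by 4.25 (SE 0.30, edgeR adjusted p = 1.33e-05). The inhibitors that damp growth factor signalling rose in part, 8 of 15 with none falling. Their number was 5, 5 and 9 without IL-10 replicate 1, 2 and 3, and 5, 6 and 5 without vehicle replicate 1, 2 and 3. Dusp2, a phosphatase of MAP kinases, had 24.2, 18.6 and 6.36 CPM with hemin and IL-10 and 0.186, 0.914 and 0.476 CPM with vehicle, and changed by 4.93 (SE 0.65, edgeR adjusted p = 0.000952). Dusp5 and Dusp4, of the same family, changed by 3.81 (SE 0.70, edgeR adjusted p = 0.0041) and 2.19 (SE 0.38, edgeR adjusted p = 0.00319).

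Inflammatory genes that passed the filter on low counts were mostly called above vehicle. Of 27 cytokine, chemokine and NF-kB target genes listed, 18 passed this filter, and 14 of these rose and none fell. The other 9 members did not pass and have no call. Members nearly silent in vehicle, such as Il11 below, passed through other groups where they were high. Of all tested genes 12.1% rose, and of those with a vehicle mean under 1 CPM 44.6% rose and 0.0% fell. The number that rose was 8, 8 and 13 without IL-10 replicate 1, 2 and 3, and 7, 10 and 8 without vehicle replicate 1, 2 and 3. Ptgs2, the inducible cyclooxygenase of prostaglandin synthesis, had 187, 167 and 26.4 CPM with hemin and IL-10, against 0.928, 1.19 and 0.190 CPM with vehicle, a change of 7.34 (SE 1.11, edgeR adjusted p = 0.00184). Il11, an IL-6 family cytokine, had 18.3, 19 and 13.7 CPM with hemin and IL-10 and 0.186, 0.457 and 0.190 CPM with vehicle, a change of 5.87 (SE 0.69, edgeR adjusted p = 0.000476). Nfkbiz, an inducible IκB family cofactor of NF-kB, had 57, 62.4 and 81.1 CPM with hemin and IL-10 and 7.52, 9.32 and 5.71 CPM with vehicle, a change of 3.15 (SE 0.29, edgeR adjusted p = 8.64e-05). The groups were separate for all 3, and Tnfaip3, the A20 feedback inhibitor of NF-kB, changed by 2.48 (SE 0.45, edgeR adjusted p = 0.00382). Among interferon-stimulated genes 16 of 23 were tested, 2 rose (12.5%) and 1 fell (6.25%), near or below the shares of all genes, 12.1% and 8.81%. Cxcl10, a chemokine for T cells, had 9.39, 13.6 and 7.47 CPM with hemin and IL-10 and 1.11, 1.01 and 0.0952 CPM with vehicle, a change of 3.75 (SE 0.60, edgeR adjusted p = 0.00218). Rsad2 changed by 4.07 (SE 1.13, edgeR adjusted p = 0.0257), lost without any 1 of the libraries other than IL-10 replicate 3 and in 2 other alternatives, and Ifit2 by -1.95 (SE 0.49, edgeR adjusted p = 0.0175), lost without vehicle replicate 1 or 3. Summed microglia and macrophage markers, another possible source of such transcripts, were 129, 86 and 65.7 CPM with hemin and IL-10 and 88.6, 83.2 and 35.8 CPM with vehicle. These sums overlapped, 1 of 17 tested markers, the lysosomal gene Cd68, rose (lost without IL-10 replicate 1 or vehicle replicate 1 or 3) and none fell, and their part in the inflammatory result was not tested.

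The receptor pathway of IL-10 itself had no larger share of calls than all genes. Of 19 receptor, JAK and STAT genes tested, 2 rose (10.5%, against 12.1% of all genes) and 1 fell (5.26%, against 8.81%), with a median of -0.02. The number that rose was 0, 1 and 3 without IL-10 replicate 1, 2 and 3, and 1, 2 and 0 without vehicle replicate 1, 2 and 3. Il10ra, the ligand-binding receptor chain, had 1.83, 0.842 and 0.909 CPM with hemin and IL-10 and 0.278, 0.183 and 0.0952 CPM with vehicle. Its change of 2.60 (SE 0.74, edgeR adjusted p = 0.0281) rested on these low counts and was lost without any 1 of the libraries other than IL-10 replicate 3. Il10rb, the shared chain, had 3.24, 4.95 and 3.23 CPM with hemin and IL-10 and 1.95, 2.56 and 1.90 CPM with vehicle, and was not called (log2 0.83, adjusted p = 0.119). Stat6 rose by 2.23 (SE 0.55, edgeR adjusted p = 0.0155), a call lost without IL-10 replicate 1 or vehicle replicate 3. Pias3, an inhibitor of STAT3, changed by -0.88 (SE 0.25, edgeR adjusted p = 0.0296), and its call was lost without any 1 library other than IL-10 replicate 3. Stat3 had 175, 190.2 and 178 CPM with hemin and IL-10 and 339, 291 and 204 CPM with vehicle, a difference of -0.62 (SE 0.24, edgeR adjusted p = 0.0897) that missed the threshold although the groups did not overlap. Socs3 had 17.7, 26.7 and 10.9 CPM with hemin and IL-10, against 14.4, 12.2 and 8.66 CPM with vehicle. The Socs3 ranges overlapped, the difference was 0.65 (SE 0.34, edgeR adjusted p = 0.196), and hemin alone gave 26.9, 28 and 35.1 CPM.

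Genes known to be induced through STAT3 in other cells formed a further list. Of 20 tested 6 rose and none fell, with a median of 0.66. The share that rose was 30.0%, beside 12.1% of all genes. The number that rose was 5, 5 and 7 without IL-10 replicate 1, 2 and 3, and 4, 5 and 5 without vehicle replicate 1, 2 and 3. Cebpb, a bZIP transcription factor, had 49.6, 41.4 and 13.5 CPM with hemin and IL-10, against 1.11, 1.92 and 0.381 CPM with vehicle, a change of 4.92 (SE 0.60, edgeR adjusted p = 0.00059). Gadd45g, a growth arrest gene, had 149, 128 and 72.6 CPM with hemin and IL-10 and 16.5, 19.7 and 16.4 CPM with vehicle, a change of 2.73 (SE 0.27, edgeR adjusted p = 0.000141). Both genes lay above vehicle in every library with hemin and IL-10. Arid5a, an RNA-binding protein that stabilises cytokine transcripts, changed by 2.69 (SE 0.34, edgeR adjusted p = 0.000674), and the repressor Nfil3 by 2.34 (SE 0.31, edgeR adjusted p = 0.000995). Hemin alone gave log2 changes over the same vehicle libraries of 4.92 for Cebpb, 2.75 for Gadd45g, 2.33 for Arid5a and 2.14 for Nfil3.

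Progenitor identity genes fell in part. Of 25 progenitor genes 10 fell, none rose and 15 were not called, with a median log2 change of -1.32, beside a background of 8.81% of genes that fell. The number that fell was 4, 1 and 15 without IL-10 replicate 1, 2 and 3, and 2, 5 and 4 without vehicle replicate 1, 2 and 3. The vehicle libraries carried the label's markers at clear levels, with 313, 406 and 745 CPM for Pdgfra, 363, 477 and 644 CPM for Olig2 and 354, 274 and 363 CPM for Sox10. They carried astrocyte markers as well. In vehicle the progenitor list summed to 9478, 8102 and 10646 CPM and the astrocyte list to 6960.5, 5718 and 2824 CPM. Olig2, the transcription factor that specifies the lineage, had 139, 115 and 114 CPM with hemin and IL-10 and 363, 477 and 644 CPM with vehicle. Its groups were well apart, and the change of -2.01 (SE 0.48, edgeR adjusted p = 0.0141) was lost without IL-10 replicate 2 or vehicle replicate 3. Gpr17, a receptor of committed precursors, had 6.69, 15.3 and 77.2 CPM with hemin and IL-10 and 683, 218 and 762 CPM with vehicle, and changed by -4.07 (SE 1.03, edgeR adjusted p = 0.0182), lost without IL-10 replicate 1 or 2 or vehicle replicate 1. Sox10 and Olig1, 2 further lineage factors, changed by -2.53 (SE 0.73, edgeR adjusted p = 0.0301) and -1.84 (SE 0.60, edgeR adjusted p = 0.0461). Both of these calls were lost without any 1 of the libraries other than IL-10 replicate 3.

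Pdgfra, the receptor for the growth factor that keeps progenitors dividing, had 47.8, 31.1 and 246 CPM with hemin and IL-10, against 313, 406 and 745 CPM with vehicle. IL-10 replicate 3 was several-fold above the other 2 libraries of its group and below each vehicle library. The change of -2.17 (SE 0.71, edgeR adjusted p = 0.0479) ran from -3.63 without IL-10 replicate 3 to -1.73, and its call was lost without any 1 of the other 5 libraries, with the transcript length trend removed, and in a fit to the 6 libraries alone. In bulk RNA fewer cells of a type and less of its RNA per cell cannot be told apart. Summed astrocyte markers, another glial type, were 2480.1, 2751 and 1103 CPM with hemin and IL-10 and 6960.5, 5718 and 2824 CPM with vehicle, and 1 of 12, the glutamate transporter gene Slc1a2, fell, a call lost without IL-10 replicate 2 or vehicle replicate 1. These sums were lower with hemin and IL-10 and did not overlap, and their part in the progenitor result was not tested.

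Genes of differentiation and myelin fell in part. Of 28 listed, 25 were tested, 7 fell and none rose, with a median of -1.62, and the number that fell was 3, 3 and 6 without IL-10 replicate 1, 2 and 3, and 4, 5 and 5 without vehicle replicate 1, 2 and 3. Myrf, the factor that drives the myelin programme, had 15.8, 44.4 and 52.9 CPM with hemin and IL-10, against 349, 281 and 181 CPM with vehicle, a change of -2.84 (SE 0.57, edgeR adjusted p = 0.00619). Omg, the oligodendrocyte myelin glycoprotein, had 2.81, 3.90 and 8.89 CPM with hemin and IL-10 and 59.6, 35.5 and 83.3 CPM with vehicle, a change of -3.51 (SE 0.64, edgeR adjusted p = 0.00394). Nfasc, neurofascin, an adhesion protein of axon and glia contacts, changed by -3.12 (SE 0.76, edgeR adjusted p = 0.0149), lost without IL-10 replicate 1 or 2. Each of these 3 was lower in every library with hemin and IL-10. Mbp, the abundant myelin basic protein, behaved differently from library to library, with 637, 1046 and 429 CPM with hemin and IL-10 and 2129.8, 3342 and 1014 CPM with vehicle. The Mbp ranges overlapped and the difference of -1.62 (SE 1.04, edgeR adjusted p = 0.288) was not called.

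Genes for channels, receptors and adhesion proteins of progenitors gave 6 falls and no rise among 24 tested, with a median of -0.82. Their number was 4, 3 and 8 without IL-10 replicate 1, 2 and 3, and 3, 5 and 4 without vehicle replicate 1, 2 and 3. Kcnj10, the Kir4.1 potassium channel of glia, had 26.9, 34.3 and 20.3 CPM with hemin and IL-10 and 240.1, 136 and 120.1 CPM with vehicle, a change of -2.60 (SE 0.33, edgeR adjusted p = 0.000699). Kcna6, a voltage-gated potassium channel, had 17.4, 11.9 and 11.1 CPM with hemin and IL-10 and 63, 74.3 and 74.2 CPM with vehicle, a change of -2.39 (SE 0.28, edgeR adjusted p = 0.000495). Both were separate from vehicle in all libraries. Nlgn3, neuroligin 3, an adhesion protein of cell contacts, changed by -2.25 (SE 0.50, edgeR adjusted p = 0.01).

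Cell division genes gave 12 falls and no rise among 32 tested, with a median of -1.06. The falls rested on few libraries, since their number was 3, 2 and 14 without IL-10 replicate 1, 2 and 3, and 3, 10 and 2 without vehicle replicate 1, 2 and 3. Rrm2, the regulated subunit of the enzyme that makes deoxynucleotides, had 48.9, 42.3 and 58.1 CPM with hemin and IL-10, against 172, 143 and 328 CPM with vehicle, a change of -2.11 (SE 0.39, edgeR adjusted p = 0.00458). Its partner subunit Rrm1 changed by -1.78 (SE 0.42, edgeR adjusted p = 0.0125). Mki67, a proliferation marker, had 118, 118 and 198 CPM with hemin and IL-10 and 629, 465 and 749 CPM with vehicle, and its change of -2.09 (SE 0.51, edgeR adjusted p = 0.015) was lost without IL-10 replicate 1 or 2 or vehicle replicate 3. Groups did not overlap for these 3 genes. The p53 list holds the p53 gene Trp53 and targets of p53, which arrest the cell cycle or start cell death. It gave 10 rises, Trp53 among them, and no fall among 22, with a median of 1.23. The number that rose was 5, 7 and 9 without IL-10 replicate 1, 2 and 3, and 3, 7 and 5 without vehicle replicate 1, 2 and 3. Plk3, a stress-activated kinase, had 70.6, 58.5 and 52.1 CPM with hemin and IL-10 and 5.20, 10.3 and 6.09 CPM with vehicle, a change of 3.06 (SE 0.28, edgeR adjusted p = 7.75e-05). Plk2, of the same family, changed by 2.67 (SE 0.48, edgeR adjusted p = 0.00398), and Pmaip1, the NOXA death gene, by 4.07 (SE 0.92, edgeR adjusted p = 0.0111), lost without vehicle replicate 1. BCL2 family genes gave 1 rise and 1 fall among 11, each 9.09%, near the 12.1% and 8.81% of all genes. Bcl2l11, which encodes the death activator BIM, was the 1 that rose, by 1.89 (SE 0.40, edgeR adjusted p = 0.00838). Bcl2l2, a survival member, was the 1 that fell, with a change of -0.80 (SE 0.23, edgeR adjusted p = 0.0303) that was lost without any 1 library other than IL-10 replicate 3.

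**Figure D3:**
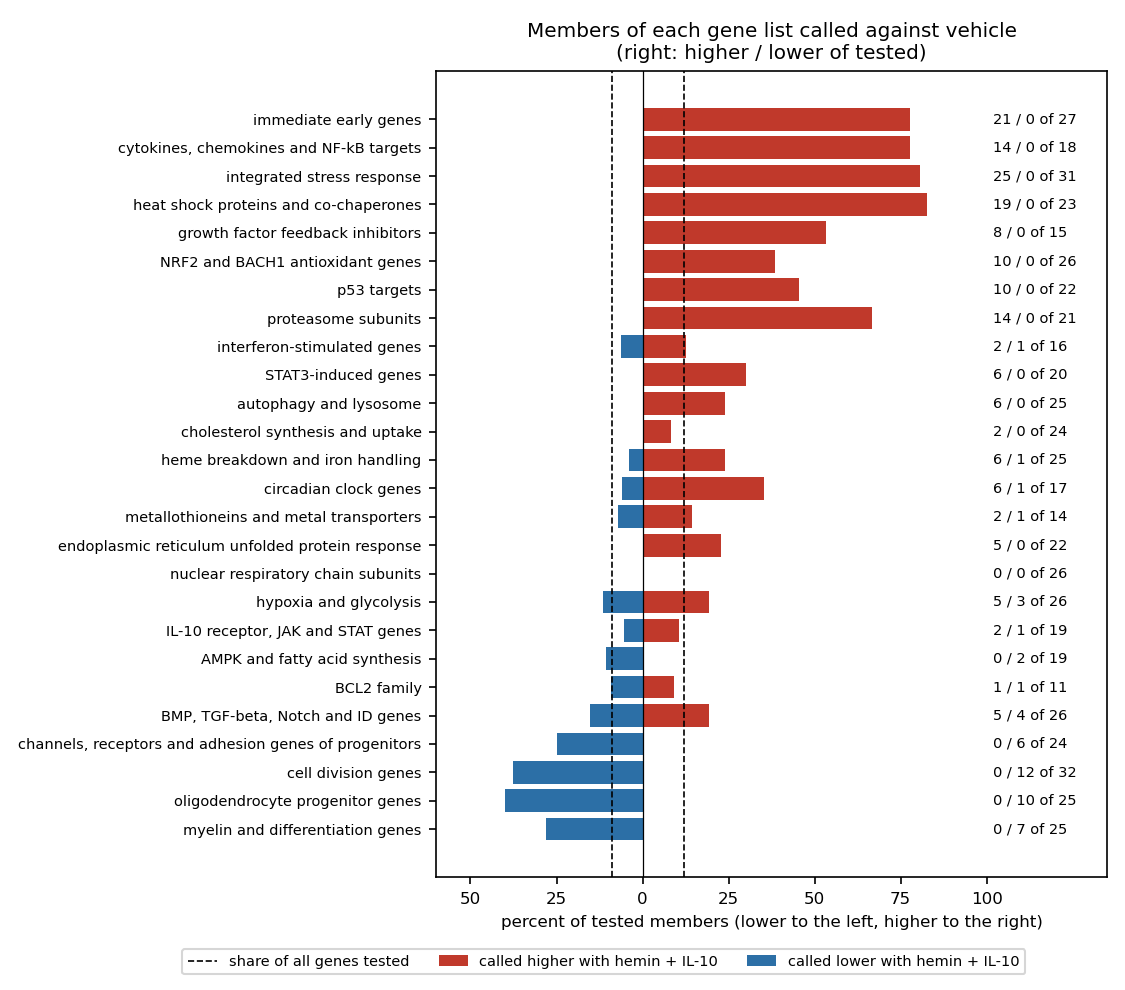
For each of the 26 pathway lists the bars give the percent of tested members called higher (red, to the right) or lower (blue, to the left) with hemin and IL-10 than with vehicle. Dashed lines mark the shares of all genes tested, 12.1% higher and 8.81% lower, and lists run from the largest median change at the top to the smallest at the bottom. Immediate early, cytokine, integrated stress response and heat shock lists have the longest bars to the right, and progenitor, cell division, myelin, channel and AMPK lists have bars to the left alone.

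Of 26 nuclear respiratory chain subunits 0 were called by edgeR, DESeq2 or limma-voom, and 0 had an unadjusted p under 0.05 with these tools. Other edgeR fits called some: 2 with the transcript length trend removed, 4 in the fit to the 6 libraries alone, and 3 once hemin replicate 1 and replicate 3 of hemin with IL-10 and stattic, both outside the comparison, were dropped. The smallest edgeR adjusted p was that of Cox4i1, a cytochrome oxidase subunit, at 0.193 (log2 0.72). Cholesterol genes gave 2 rises among 24, 8.33%, a smaller share than the 12.1% of all genes. These rises numbered 3, 1 and 0 without IL-10 replicate 1, 2 and 3, and 0, 0 and 1 without vehicle replicate 1, 2 and 3. Cyp51, a demethylase of sterol synthesis, changed by 1.34 (SE 0.35, edgeR adjusted p = 0.0203), and lost its call without any 1 library other than IL-10 replicate 1. In the AMPK and fatty acid list 2 of 19 fell and none rose, 10.5% beside 8.81% of all genes, so the count does not stand apart from the background. Camkk2, a kinase upstream of AMPK, had 13.1, 14.6 and 17.4 CPM with hemin and IL-10 and 32.4, 38.8 and 35.2 CPM with vehicle, a change of -1.24 (SE 0.23, edgeR adjusted p = 0.00437), and Prkag2, a regulatory subunit of AMPK, changed by -1.10 (SE 0.25, edgeR adjusted p = 0.0101), lost without vehicle replicate 1. Hypoxia and glycolysis genes went both ways, with 5 rises and 3 falls among 26 (19.2% and 11.5%, beside 12.1% and 8.81% of all genes). The rises numbered 1, 2 and 4 without IL-10 replicate 1, 2 and 3, and 1, 2 and 1 without vehicle replicate 1, 2 and 3. The falls ran from 1 to 3 in the same fits. The glucose transporter gene Slc2a3 had 50.5, 58 and 58.9 CPM with hemin and IL-10 and 16.8, 21.4 and 22.4 CPM with vehicle, a change of 1.47 (SE 0.24, edgeR adjusted p = 0.0025), while the oxygen sensor gene Egln1 had 41.5, 39.7 and 50.8 CPM with hemin and IL-10 and 79.1, 88 and 101 CPM with vehicle, a change of -1.02 (SE 0.19, edgeR adjusted p = 0.00482). Both were separate between groups in all libraries. The list of metallothionein and metal transporter genes gave 2 rises and 1 fall among 14, or 14.3% and 7.14%, near the 12.1% and 8.81% of all genes. The fall was that of Slc30a10, a manganese exporter. Slc30a10 had no counts in the 3 libraries with hemin and IL-10, against 7.89, 3.38 and 0.762 CPM with vehicle and 0.496, 3.69 and 5.31 CPM with hemin. Its adjusted p was 0.0166, and the call was lost without IL-10 replicate 2 or vehicle replicate 1. Clock genes gave 6 rises and 1 fall among 17, with Ciart, a clock repressor, at 2.45 (SE 0.45, edgeR adjusted p = 0.00405) and the core repressor Cry1 at 0.94 (SE 0.18, edgeR adjusted p = 0.00582). The clock rises numbered 3, 2 and 3 without IL-10 replicate 1, 2 and 3, and 2, 4 and 2 without vehicle replicate 1, 2 and 3.

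BMP, TGF-beta, Notch and ID genes split by member, with 5 rises and 4 falls among 26 (19.2% and 15.4%, beside 12.1% and 8.81% of all genes). The rises numbered 4, 2 and 4 without IL-10 replicate 1, 2 and 3, and 3, 3 and 3 without vehicle replicate 1, 2 and 3. The falls numbered 2, 1 and 4 without IL-10 replicate 1, 2 and 3, and 1, 5 and 2 without vehicle replicate 1, 2 and 3. Bmp4, a ligand that holds back oligodendrocyte maturation, had 1.19, 2.95 and 7.27 CPM with hemin and IL-10, against 74.8, 24.5 and 56 CPM with vehicle, a change of -3.76 (SE 0.84, edgeR adjusted p = 0.0102). Bmp2, its close relative, had 2.81, 4.0 and 4.64 CPM with hemin and IL-10 and 0.186, 0.366 and 0.762 CPM with vehicle, a change of 3.09 (SE 0.49, edgeR adjusted p = 0.00216). Inhba, the activin A subunit, had 12.9, 10.2 and 8.08 CPM with hemin and IL-10 and 0.928, 0.0914 and 0.286 CPM with vehicle, a change of 4.54 (SE 0.95, edgeR adjusted p = 0.00761). So Bmp2 and Bmp4 lay on opposite sides of vehicle, each without overlap, while Bmp7, the other BMP ligand gene of the list, was not called.

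Several of the largest rises were in genes that vehicle cells hardly expressed. Myod1, the master factor of skeletal muscle, had 99.5, 53.1 and 7.27 CPM with hemin and IL-10, against 0.0928, 0.0914 and 0 CPM with vehicle. Its vehicle values rest on 2 counts over the group, and the ratio of summed counts was 842-fold (exact 95% counting interval 233 to 6958), with an edgeR adjusted p of 0.0019. Nts, the precursor of neurotensin, had 54.5, 16.6 and 16.7 CPM with hemin and IL-10 and 0, 0.274 and 0.190 CPM with vehicle, a change of 7.45 (SE 1.04, edgeR adjusted p = 0.00126). Both were separate between groups, which the rule that named them required, with IL-10 replicate 3 at or near the low end. Hdc, which makes histamine, Edn1, the endothelin 1 precursor, and Tac1, the substance P precursor, had no counts in vehicle. Against a floor of 3 counts over the vehicle group they were at least 89.2-fold, 71.6-fold and 62.2-fold higher, with 2.37, 8.84 and 13.3 CPM, 3.78, 7.16 and 8.89 CPM and 7.12, 4.63 and 5.65 CPM with hemin and IL-10. Floors cover counting error only.

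Among the falls outside these lists, Rassf10 had 0.540, 2.11 and 2.02 CPM with hemin and IL-10 and 40.6, 14 and 13.7 CPM with vehicle, a change of -3.86 (SE 0.73, edgeR adjusted p = 0.00498). Draxin, a secreted repellent of growing axons, had 1.08, 0.842 and 1.31 CPM with hemin and IL-10 and 12.8, 13 and 6.95 CPM with vehicle, a change of -3.32 (SE 0.49, edgeR adjusted p = 0.00153). Slitrk1, a synaptic adhesion protein, changed by -3.53 (SE 0.69, edgeR adjusted p = 0.00551), Tmem88b by -3.46 (SE 0.74, edgeR adjusted p = 0.00859), Tcf19 by -3.06 (SE 0.55, edgeR adjusted p = 0.00375) and the kinase gene Aatk by -3.06 (SE 0.59, edgeR adjusted p = 0.0054). None of these 6 overlapped between groups, which the rule that named them required. Nfe2l3, a relative of NRF2, changed by -3.21 (SE 0.79, edgeR adjusted p = 0.0159), lost without IL-10 replicate 1 or 2 or vehicle replicate 1.

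Set beside hemin alone, which shares its vehicle libraries with the comparison above, hemin with IL-10 gave the following list medians. Hemin alone called 2917 genes against vehicle (20.9%), 1639 higher (11.7%) and 1278 lower (9.15%). For heat shock genes the median log2 change over vehicle was 1.65 with hemin and IL-10 and 1.35 with hemin. For the integrated stress response it was 1.95 with hemin and IL-10 and 1.40 with hemin. For the p53 list it was 1.23 with hemin and IL-10 and 0.66 with hemin. Immediate early genes had 3.02 with hemin and IL-10 and 3.42 with hemin, and cytokines had 2.88 with hemin and IL-10 and 3.63 with hemin. Progenitor genes had -1.32 with hemin and IL-10 and -0.91 with hemin, and myelin genes had -1.62 with hemin and IL-10 and -1.83 with hemin. The widest gap was in the microglia and macrophage markers, at 0.35 with hemin and IL-10 and 2.04 with hemin. Their summed CPM was 428, 178 and 130 with hemin, against 129, 86 and 65.7 with hemin and IL-10. Hemin replicate 1, the highest, also had the steepest trend with transcript length of the hemin libraries. No marker was called in the direct test below, and the source of this gap was not tested.

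The direct test of hemin with IL-10 against hemin called no gene in edgeR (0.0%), with 337 genes (2.41%) at an unadjusted p under 0.05. DESeq2 called 3 genes (Dlk1, Slc30a10 and the histone gene H3c14) and limma-voom none. Same-numbered libraries of these 2 groups deviated together in part. The correlation across genes of their deviations from the group mean was 0.39 and 0.63 for replicates 1 and 3. For replicate 2 it was 0.17, below the 0.23 and 0.22 of the pairs that cross replicates 1 and 2. With the replicate number as a block, edgeR called 1 gene, Dlk1, with 702 genes (5.03%) at an unadjusted p under 0.05. Without the block the 95% confidence interval of the difference lay within 2-fold for 6936 genes, 49.7% of those tested, so for the other genes a difference beyond 2-fold in at least 1 direction is inside the interval. With the block it lay within 2-fold for 8027 genes, 57.5%. Without the block, for Hmox1 the difference was 0.25 (95% CI -1.13 to 1.62), for Hspa1a 0.25 (-0.63 to 1.14), for Chac1 0.07 (-0.62 to 0.76) and for Gclc -0.30 (-0.87 to 0.28). Among falls it was -0.01 (-1.17 to 1.15) for Myrf and -0.19 (-1.68 to 1.29) for Pdgfra. For Fosb the difference was -0.51 (-1.19 to 0.18). With the block the intervals were -0.67 to 0.98 for Hmox1, -0.50 to 1.15 for Hspa1a, -0.45 to 0.59 for Chac1, -0.91 to 0.29 for Gclc, -1.13 to 0.03 for Fosb, -0.99 to 0.98 for Myrf and -1.63 to 0.31 for Pdgfra, whose difference was then -0.66. All 7 intervals held 0 in both fits.

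**Figure D4:**
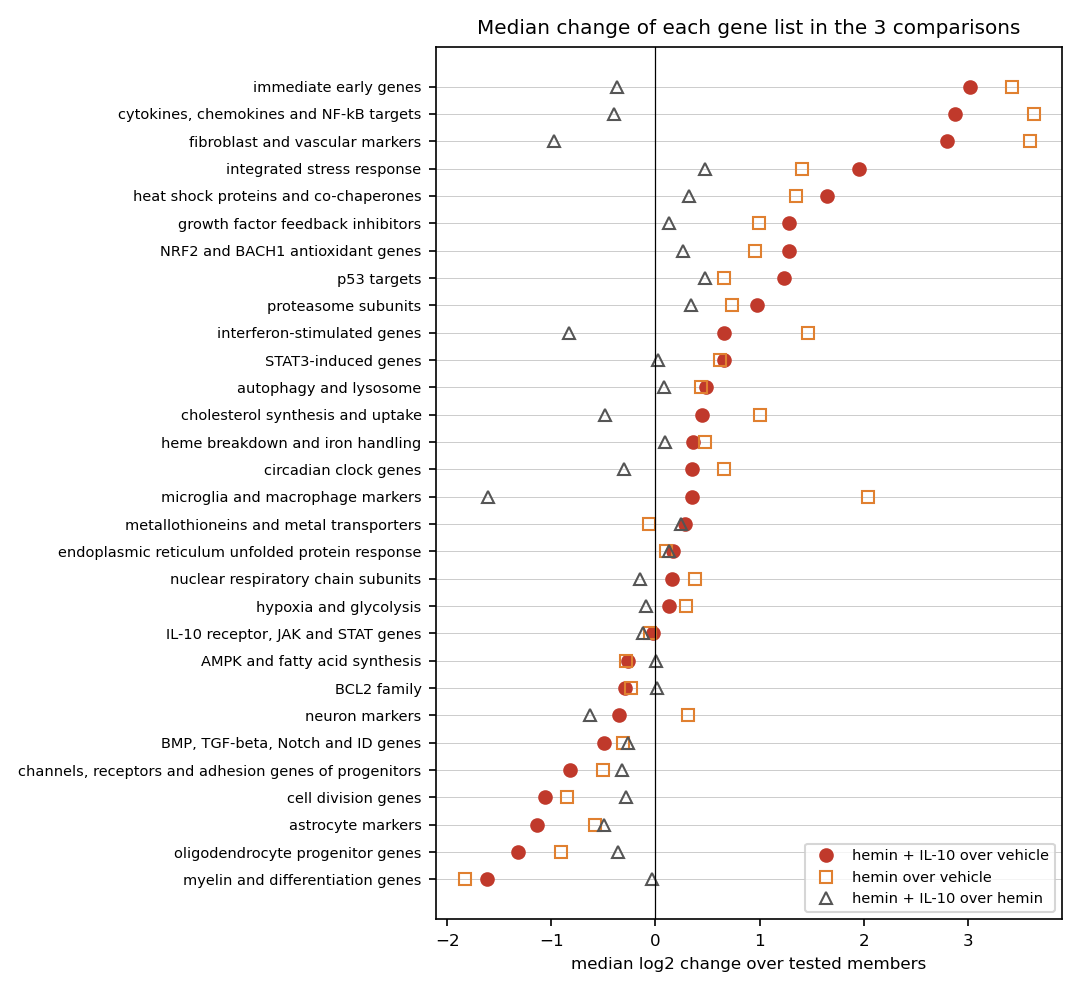
Median log2 change of each list's tested members for hemin with IL-10 over vehicle (filled circles), hemin over vehicle (open squares) and hemin with IL-10 over hemin (open triangles). The first 2 comparisons share the 3 vehicle libraries. Lists run from the largest median for hemin with IL-10 over vehicle at the top to the smallest at the bottom, and microglia and macrophage markers have 0.35 for the circle and 2.04 for the square.

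Dlk1, which encodes a membrane protein related to Notch ligands that restrains differentiation in several tissues, had the smallest p in that direct test. It had 44.5, 67 and 96.2 CPM with hemin and IL-10, against 8.82, 7.07 and 5.81 CPM with hemin and 47.8, 72.9 and 109 CPM with vehicle. Libraries with hemin and IL-10 lay among the vehicle libraries, and all hemin libraries lay several-fold below both. Against hemin the difference was 3.26 (SE 0.43, 95% CI 2.33 to 4.18, and 2.35 to 3.91 with the replicate block), with an adjusted p of 0.0735 in edgeR, 0.0287 with the replicate block and 0.0152 without the filter on low counts. Against vehicle it was -0.15 (SE 0.38, edgeR adjusted p = 0.822). Hemin alone differed from vehicle by -3.40 on the log2 scale.

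The next smallest p-values of the direct test belonged to 4 genes that were lower with IL-10. Cntn2, a contactin of axon and glia contacts, had 0.540, 1.47 and 1.11 CPM with hemin and IL-10, against 4.56, 4.71 and 3.21 CPM with hemin and 6.49, 4.57 and 4.0 CPM with vehicle. Gria1, an AMPA receptor subunit, had 4.32, 6.11 and 2.83 CPM with hemin and IL-10, against 22.6, 17.3 and 10.6 CPM with hemin and 25.4, 15.1 and 7.90 CPM with vehicle. For both, each library with hemin and IL-10 lay below each library of the other groups. As both were picked by their p against hemin, the separation from hemin is no further evidence. Sncaip, which encodes a partner of synuclein, had 6.69, 5.79 and 10.4 CPM with hemin and IL-10, against 18.5, 14.1 and 25 CPM with hemin and 25.3, 33.4 and 37.6 CPM with vehicle. Lgi1, a secreted synaptic protein, had 0.108, 0.211 and 0.404 CPM with hemin and IL-10, against 1.29, 2.15 and 1.40 CPM with hemin and 1.76, 1.19 and 0.952 CPM with vehicle. Over vehicle, Cntn2 changed by -2.25 (SE 0.45, edgeR adjusted p = 0.00608), Sncaip by -2.07 (SE 0.32, edgeR adjusted p = 0.00191), Gria1 by -1.87 (SE 0.47, edgeR adjusted p = 0.0175) and Lgi1 by -2.36 (SE 0.59, edgeR adjusted p = 0.0165). The Gria1 call was lost without IL-10 replicate 1 or vehicle replicate 1, and that of Lgi1 without IL-10 replicate 1 or 2 or vehicle replicate 1. None was called against hemin (unadjusted p = 0.000628 for Lgi1, 0.000788 for Cntn2, 0.00109 for Sncaip and 0.00145 for Gria1, edgeR), nor with the replicate block, where the edgeR adjusted p ran from 0.272 for Gria1 to 0.864 for Cntn2 and Lgi1.

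**Figure D5:**
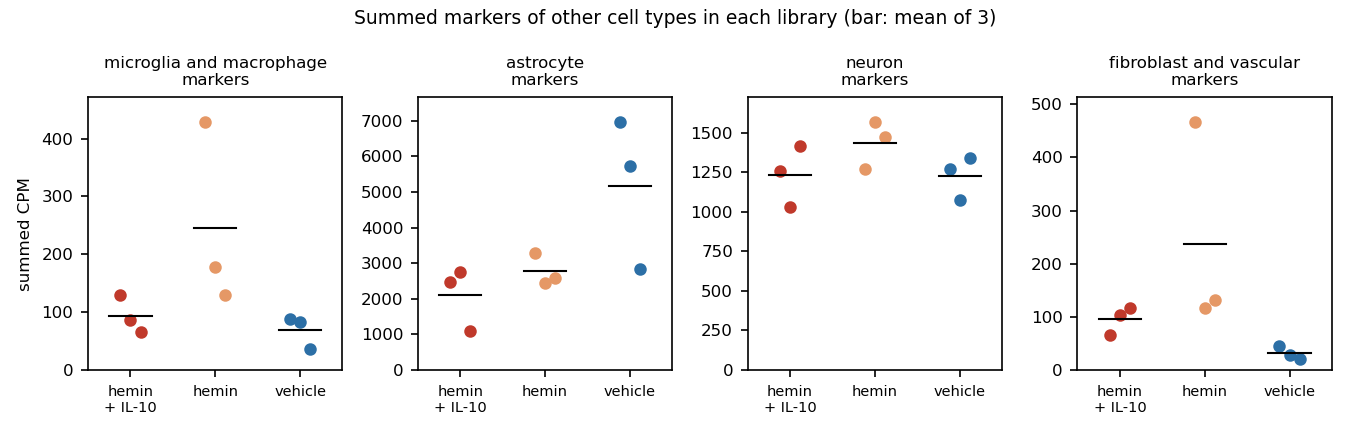
Summed CPM of the marker lists of 4 other cell types in each library of hemin with IL-10, hemin and vehicle, with bars at the mean of 3. Microglia and neuron sums of hemin with IL-10 overlap those of vehicle, astrocyte sums lie below them (2480.1, 2751 and 1103 CPM against 6960.5, 5718 and 2824 CPM), and fibroblast and vascular sums lie above them (66.1, 104 and 116 CPM against 44.9, 28.9 and 20.9 CPM).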

How the data were processed

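Libraries carried dUTP in the second strand, per the labels' protocols. Tools named in the submitters' processing notes, without role or version, are RSEM, StringTie, HISAT, TopHat, Cufflinks, Bowtie, Bowtie2 and CASAVA. Genome build and strand use in counting are not given in the sources used here. Only RefSeq promoter windows carry coordinates. The authors deposited, per the file headers, an expected count (estimated reads per gene, not normalised) and an FPKM value (scaled for transcript length and depth) for each gene above 0. Genes absent from a file were taken as 0, and 18876 genes were listed in any library.

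Expected counts were rounded and tested with edgeR 4.0.16 (R 4.3.3): filterByExpr, TMM scaling, and a robust quasi-likelihood fit to all 12 libraries with 1 mean per group, which shares the estimate of spread. Of 13967 genes tested, 99.4% matched RefSeq symbols. The fit was tested on simulated data. DESeq2 1.42.0 and limma 3.58.1, on FPKM as log2(FPKM + 1), were among 17 alternatives, 6 of which left out 1 library each. Depth was 9404448 to 10266653 counts per library, and no 2 replicates were as close as counting error alone would leave them (chi-square 14.8 to 180.7 per degree of freedom).

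The comparison, the 30 gene lists and the rule for naming genes were chosen with earlier results of these data known, so no list is independent evidence of its direction. Named genes were the 14 largest rises and 12 largest falls among called genes without overlap and with a higher mean of at least 5 CPM, up to 4 members per list with the smallest adjusted p, 12 genes of prior interest, and the 5 smallest p-values against hemin. Some genes that this rule picks are not reported here. Sox10, Olig1 and H3c14 and the members listed without values were named after their values were seen. Replicate numbers come from the labels. For hemin with IL-10 and hemin, the correlation across genes of what each same-numbered pair had beyond its group mean was 0.39, 0.17 and 0.63. Pairs that cross replicates 1 and 2 had 0.23 and 0.22, above the 0.17 of replicate 2, so the numbers pair these groups in part at most. Counts and intervals with the replicate number as a block are given beside those without it. For hemin with IL-10 and vehicle the same-numbered correlations were 0.06, 0.21 and 0.39. Pairs that cross replicates 1 and 2 had 0.24 and 0.29, and pairs that cross replicate 3 ran from -0.39 to -0.19. The numbers thus pair these groups too in part at most, and the main fit did not treat them as paired. With 3 against 3 libraries the smallest exact two-sided permutation p is 0.1, so single genes were not tested that way.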

Additional observations from a re-analysis of the deposited data

How the results depend on the processing

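No called value changed sign under the 17 alternatives. With 1 library left out, calls against vehicle ran from 1202 to 2699 in all, 724 to 1572 higher and 423 to 1127 lower. Dropping hemin replicate 1 and replicate 3 of hemin with IL-10 and stattic, the steepest in their trend with transcript length and outside the comparison, changes the shared spread and, slightly, the genes tested, and gave calls of 4546, with 2572 higher and 1974 lower. Fitting only the 6 libraries gave 1916 lower, and limma on log2(FPKM + 1) gave 855 higher and 1697 lower. Library totals gave 1317 higher and 1665 lower, 44.2% of calls higher in place of 57.9%. With the replicate number as a block, edgeR gave 2102 higher and 1827 lower. The numbers pair these groups in part at most: for IL-10 replicate 1 the correlation was higher with vehicle replicate 2 (0.24) than with 1 (0.06). Between the replicates numbered 3 it was 0.39, while pairs that cross replicate 3 with 1 or 2 ran from -0.39 to -0.19. Against hemin, calls numbered 0 in edgeR, 3 with DESeq2, 1 without the filter on low counts and 1 with the replicate block, all of these including Dlk1. Of 120 called genes that the rule named, 85 were called in each fit that left out 1 library. In the other alternatives 111 were called wherever they had a value. Some of these alternatives, limma on log2(FPKM + 1) among them, gave no value for part of the 120, so fewer than 111 were called in all of them. Depth limits the low genes: 3 counts over the vehicle group, or 0.0931 CPM, are the floor.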

Other observations

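Some markers that define other cell types changed in directions that differ within a list. Of 15 neuron markers 4 rose and 1 fell (26.7% and 6.67%, beside 12.1% and 8.81% of all genes). The rises numbered 3, 2 and 3 without IL-10 replicate 1, 2 and 3, and 3, 2 and 2 without vehicle replicate 1, 2 and 3. The summed list, at 1256, 1031 and 1414 CPM with hemin and IL-10 and 1273, 1072 and 1342 CPM with vehicle, overlapped. Nefm, the medium neurofilament chain, had 441, 241 and 176 CPM with hemin and IL-10, against 6.77, 6.85 and 12.2 CPM with vehicle, a change of 5.05 (SE 0.46, edgeR adjusted p = 7.75e-05). Nefl, the light chain, had 118, 80.6 and 65.1 CPM with hemin and IL-10 and 7.79, 8.50 and 16.6 CPM with vehicle, a change of 3.0 (SE 0.48, edgeR adjusted p = 0.00216). Dcx, a microtubule protein of young neurons, had 12.3, 23.2 and 37.5 CPM with hemin and IL-10 and 193, 149 and 169 CPM with vehicle, a change of -2.81 (SE 0.36, edgeR adjusted p = 0.000818). The neurofilament genes were thus above vehicle and Dcx below it in every library.

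Of 13 fibroblast and vascular markers tested 3 rose and none fell, 23.1% and 0.0% beside 12.1% and 8.81% of all genes. In each fit that left out 1 library, 2 rose. Of all tested genes with a vehicle mean under 1 CPM, which Pecam1 below was among, 44.6% rose and 0.0% fell. Pecam1, an endothelial adhesion protein, had 6.58, 17.1 and 23.9 CPM with hemin and IL-10, against 0.464, 0.366 and 0.286 CPM with vehicle, a change of 5.37 (SE 0.70, edgeR adjusted p = 0.000818). Kdr, a receptor for vascular endothelial growth factor, changed by 3.32 (SE 0.69, edgeR adjusted p = 0.00745). Dcn, decorin, changed by 3.46 (SE 1.11, edgeR adjusted p = 0.0443), lost without any 1 of the 6 libraries. Whether other cells or the progenitors carried these transcripts was not tested.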
